A study of Homo sapiens with 12 samples.

Results

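ZNF767P, POMZP3, HSD17B7P2, SMG1P3, LRRC37A2 and AC073869.1 are 6 human genes that arose by copying of other genes or stretches of genes, and they are described here across 12 RNA sequencing libraries. They were named as pseudogenes and duplicated genes whose levels in earlier results of these libraries were highest with the nuclease effector and the non-targeting guide. Their rows were then found by gene symbol. They are 6 of 58288 genes and hold 24 of the 200401 transcript models in the deposited tables. Because the nuclease libraries entered their choice, every difference of these genes that involves nuclease libraries is given as a description, and nothing is read from a test of it. The comparison of guides with the YTHDF2 effector is the one in which the 6 genes were tested. Its 2 groups hold none of the nuclease libraries, which entered that fit only through the scaling and the shared estimate of the spread. The choice did use the YTHDF2 levels, however, since a gene higher in either YTHDF2 group than in nuclease-NT would not have been named. This limits what the comparison can show.

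The libraries hold mRNA of HEK-293T, an established line derived from human embryonic kidney and transformed with adenoviral genes and the SV40 T antigen, and form 4 groups of 3. All groups contain a CIRTS protein, an effector assembled from human protein parts that a guide RNA brings to a transcript. The YTHDF2-SMARCA4 group carries the CIRTS-3 YTHDF2 effector with a guide against SMARCA4, and the YTHDF2-NT group carries the same effector with a non-targeting (NT) guide. The nuclease-SMARCA4 and nuclease-NT groups carry the CIRTS-12 nuclease effector with the same kinds of guide. YTHDF2 is a reader of the RNA modification m6A that shortens the life of its targets, and SMARCA4 encodes BRG1, an ATPase that drives BAF complexes in remodelling chromatin. The series text calls the libraries of a group biological replicates, and p-values measure only the spread between these libraries. No label gives a promoter for the effectors, a culture batch or the share of cells that took them up, so neither effector nor guide can be told apart from culture batch.

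Pseudogenes are copies that lost the coding capacity of their parent. Unprocessed ones come from duplicated stretches of the genome and keep introns, whereas processed ones come from reverse-transcribed mRNA. Many are transcribed, and their RNA is often listed as a processed transcript, meaning a noncoding RNA with no open reading frame. Short reads from a young copy can match its parent equally well, so the level assigned to it depends on the bases in which they differ. Among these genes, ZNF767P derives from the KRAB zinc finger family of chromosome 7, whose working members are DNA-binding repressors. POMZP3 joins a piece of POM121, which encodes a nuclear pore membrane protein, to a piece of ZP3, which encodes an egg coat glycoprotein. HSD17B7P2 is a copy of HSD17B7, which encodes a ketosteroid reductase of cholesterol synthesis. SMG1P3 is a partial copy of SMG1, the kinase that phosphorylates UPF1 in nonsense-mediated decay. LRRC37A2 belongs to a primate family of leucine-rich repeat genes spread over chromosome 17. AC073869.1 has no descriptive name, and its sequence lies closest to SMPD4, which encodes a neutral sphingomyelinase.

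How close the copies are can be seen in 4 pairs of 100 bases, each placed inside 1 exon of the copy and 1 exon of the related gene. Each pair was picked by a rule that looked for a stretch with about as many differences as the whole alignment and at least 1. Capitals mark the bases that differ within a pair, and all sequences are GENCODE 29 transcripts on GRCh38. The first pair is at chr10:38358312-38358411 on the plus strand (HSD17B7P2) and chr1:162792659-162792758 on the plus strand (HSD17B7), and differs at 1 base.
HSD17B7P2-202: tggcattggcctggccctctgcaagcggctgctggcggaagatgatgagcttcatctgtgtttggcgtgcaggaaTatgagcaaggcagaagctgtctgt
HSD17B7-201: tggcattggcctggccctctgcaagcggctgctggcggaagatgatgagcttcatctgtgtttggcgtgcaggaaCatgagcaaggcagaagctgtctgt
The second is at chr2:131501361-131501460 on the plus strand (AC073869.1) and chr2:130172398-130172497 on the minus strand (SMPD4), and differs at 2 bases.
AC073869.1-202: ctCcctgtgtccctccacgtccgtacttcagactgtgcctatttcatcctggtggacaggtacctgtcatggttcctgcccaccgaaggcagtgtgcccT
SMPD4-201: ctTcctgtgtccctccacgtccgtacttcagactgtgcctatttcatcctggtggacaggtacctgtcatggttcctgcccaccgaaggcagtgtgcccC
The third is at chr16:21484436-21484535 (SMG1P3) and chr16:18896857-18896956 (SMG1), both on the minus strand, and differs at 2 bases.
SMG1P3-206: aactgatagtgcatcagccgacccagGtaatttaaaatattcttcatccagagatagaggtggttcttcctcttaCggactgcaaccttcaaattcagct
SMG1-205: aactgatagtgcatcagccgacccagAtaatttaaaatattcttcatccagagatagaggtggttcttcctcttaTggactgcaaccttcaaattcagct
The last is at chr17:46548659-46548758 (LRRC37A2) and chr17:46330797-46330896 (LRRC37A), both on the plus strand, and differs at 1 base.
LRRC37A2-202: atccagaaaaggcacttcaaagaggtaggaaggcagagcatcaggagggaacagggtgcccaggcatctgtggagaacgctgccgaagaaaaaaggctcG
LRRC37A-201: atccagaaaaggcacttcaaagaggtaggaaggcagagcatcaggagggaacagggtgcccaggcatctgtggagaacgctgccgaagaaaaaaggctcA

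Over the best alignment of each pair, identity was 97.7% over 704 columns for HSD17B7P2-202 and HSD17B7, and 97.3% over 2059 columns for AC073869.1-202 and SMPD4. It was 95.9% over 2180 columns for SMG1P3-206 and SMG1, and 99.4% over 1995 columns for LRRC37A2-202 and LRRC37A. A read that covers none of the capital bases in these windows matches both copies.

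The share of a model's 31-base words (31-mers) that occur in no other gene measures how much of it can be told apart. ZNF767P-201 was the most distinct of the models that carry most counts, with 93.4% of its 31-mers found in no other gene. AC073869.1-202 had 49.1%, HSD17B7P2-202 31.4%, LRRC37A2-202 30.6%, SMG1P3-206 15.4% and POMZP3-202 9.52%. SMPD4 held 50.6% of the 31-mers of AC073869.1-202, HSD17B7 held 62.8% of those of HSD17B7P2-202 and LRRC37A held 55.5% of those of LRRC37A2-202. SMG1P3-206 shared more with another SMG1 pseudogene, SMG1P1 (53.5%), than with SMG1 itself (41.1%). For POMZP3-202 the shares were 47.4% with AC004980.1, 46.1% with POM121C, 31.2% with ZP3 and 16.4% with POM121. The levels of all but ZNF767P are therefore uncertain in the division of reads with their copies.

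**Figure D1:**
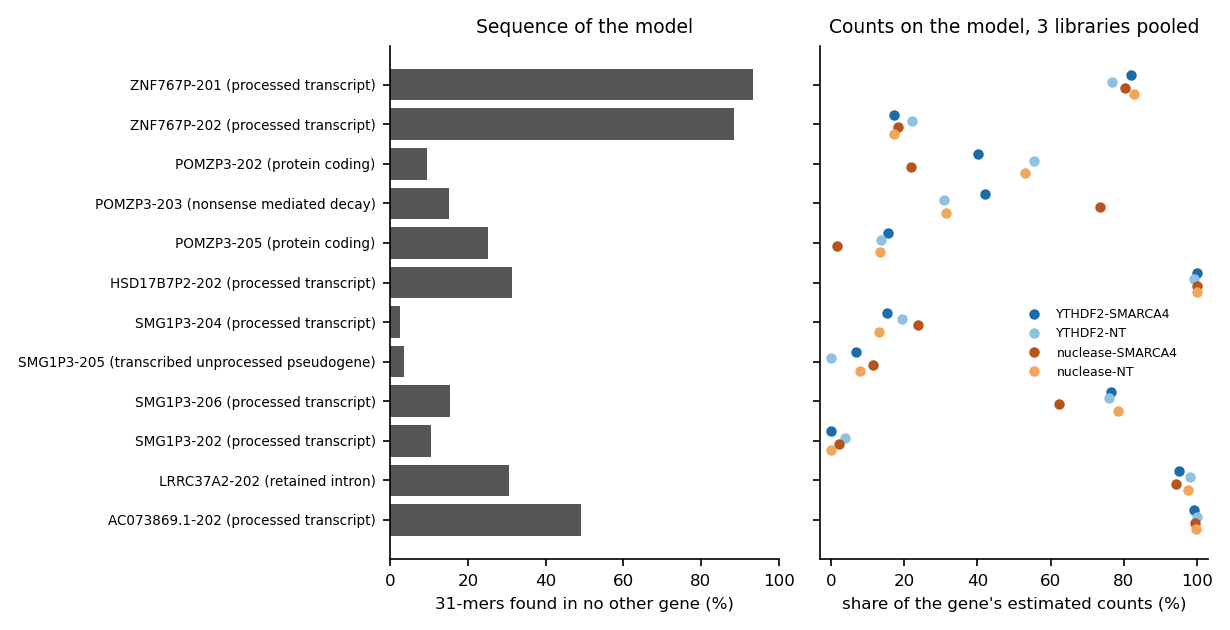
The 12 transcript models that reached 1 TPM in a library, with the annotated class of each in brackets. Left, share of the model's 31-mers found in no other gene (%), from 93.4% for ZNF767P-201 to 2.43% for SMG1P3-204. Right, share of the gene's estimated counts that the model held (%), each point 1 group with its 3 libraries pooled: 1 model held nearly all counts of HSD17B7P2, LRRC37A2 and AC073869.1, while POMZP3 was divided differently between groups.

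Of the 24 models, 12 reached 1 TPM in at least 1 library, 12 stayed below 1 TPM in every library, and 2 of these were listed at 0 throughout. A single model held 99.8% of the pooled estimated counts of HSD17B7P2 (HSD17B7P2-202), 99.5% of those of AC073869.1 (AC073869.1-202) and 96.2% of those of LRRC37A2 (LRRC37A2-202). ZNF767P was divided between ZNF767P-201, with 80.8%, and ZNF767P-202, with 18.5%. SMG1P3 had 74.4% on SMG1P3-206, 16.9% on SMG1P3-204, 6.75% on SMG1P3-205 and 1.07% on SMG1P3-202. POMZP3 had 44.5% on the protein-coding model POMZP3-202, 41.6% on POMZP3-203, a model annotated as a substrate of nonsense-mediated decay, and 12.02% on POMZP3-205.

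The leading model was a processed transcript in 4 of the 6 genes and a retained-intron transcript in LRRC37A2. Models of these 2 classes thus led in 5 of 6 genes (83.3%), against 1189 of 16297 genes tested (7.3%). Nothing is read from this difference, because the 6 genes were named as pseudogenes and duplicated genes. GENCODE 29 gives the gene type transcribed unprocessed pseudogene to ZNF767P, HSD17B7P2 and SMG1P3, transcribed processed pseudogene to AC073869.1, and protein coding to POMZP3 and LRRC37A2. Despite its type, AC073869.1 is annotated with introns, as AC073869.1-202 has 18 exons. For LRRC37A2, the coding models LRRC37A2-201 and LRRC37A2-203 stayed below 1 TPM in every library, so what was counted for this protein-coding gene lay almost wholly on LRRC37A2-202, a model of 3082 bases at chr17:46547225-46555643.

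Library totals ranged from 9207196 to 18047859 estimated counts, and the 6 genes had between 81 (HSD17B7P2) and 782 (ZNF767P) of them per library. SMARCA4, the targeted gene, had 243, 210.2 and 221 CPM in YTHDF2-SMARCA4 against 302, 235 and 250.2 CPM in YTHDF2-NT, and 239, 250.0 and 219.6 CPM in nuclease-SMARCA4 against 225, 245 and 242 CPM in nuclease-NT. CPM here is the count scaled to a common library size after TMM adjustment of the totals. Both pairs of SMARCA4 values overlapped. With edgeR the log2 fold change was -0.22 with YTHDF2 (SE 0.095, unadjusted p = 0.0337, adjusted p = 0.703). With the nuclease it was -0.0085 (SE 0.095, adjusted p = 0.985). In bulk RNA, fewer cells with a transcript and less of it per cell cannot be told apart. In a principal component analysis the first component held 19.8% of the variance, and the YTHDF2-NT libraries were spread most widely on it, with replicate 1 at 56.2, replicate 2 at -29.1 and replicate 3 at 13.7, against -15.1 to 13.6 for the 9 others. The log2 fold changes of the 6 genes that rest on YTHDF2-NT are therefore given with all its libraries and with each of them left out in turn. Of 10 HEK-293T markers 9 reached 1 TPM in every library (summed level 639 to 772 TPM), PAX2 being the exception. Of 4 blood and 2 liver markers 0 did so (0.28 to 1.51 and 0.23 to 1.12 TPM), and of 4 fibroblast markers 1 did, COL1A1 (3.16 to 4.98 TPM). Among the HEK-293T markers VIM alone had 368 to 468 TPM, the largest part of their sum. LHX1 and EYA1 had 1.80 to 5.26 and 2.44 to 5.15 TPM.

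ZNF767P, at chr7:149547154-149624752 on the minus strand, had the largest difference in CPM among the 6 genes, all of which passed the count filter. Its level was 26.4, 33.6 and 34.7 CPM in YTHDF2-SMARCA4 and 25.3, 29.7 and 32.6 CPM in YTHDF2-NT. It was 19.5, 23.5 and 24.9 CPM in nuclease-SMARCA4, against 41.8, 53.1 and 52.2 CPM in nuclease-NT. Every nuclease-NT library lay above the other 9, and every nuclease-SMARCA4 library lay below the other 9. The mean was 22.6 ± 2.78 CPM in nuclease-SMARCA4 and 49.1 ± 6.29 CPM in nuclease-NT (SD, n = 3 each), a log2 fold change of -1.12 (SE 0.141). YTHDF2-NT, with 29.2 ± 3.69 CPM (SD, n = 3), was also below nuclease-NT, at -0.75 on the log2 scale. In nuclease-SMARCA4 over nuclease-NT edgeR called 1 of 16297 genes (0.00614%) at an adjusted p of 0.05. That gene was ZNF767P, and nothing is read from the call because this comparison entered its choice. The number of genes called was 140 with DESeq2 (0.859%) and between 0 and 44 with 1 library left out.

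The zinc finger gene that shares most with ZNF767P is ZNF746, which encodes the repressor known as PARIS and held 6.59% of the 31-mers of ZNF767P-201. ZNF746 had 38.4, 44.0 and 46.4 CPM in nuclease-SMARCA4 against 43.1, 49.7 and 52.1 CPM in nuclease-NT, and these ranges overlapped. It had a log2 difference of -0.17 (SE 0.099, adjusted p = 0.568). Of 9 zinc finger genes of the chromosome 7 cluster that passed the count filter, all 9 were lower in nuclease-SMARCA4, as were 50.1% of all genes tested. Their median log2 fold change was -0.19, with 0 called by edgeR and 3 at an unadjusted p under 0.05, as 10.9% of all genes tested were. ZNF398 was at -0.30 (SE 0.0995, adjusted p = 0.305) and ZNF425 at -0.50.

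POMZP3, at chr7:76609986-76627261 on the minus strand, had 14.2, 15.1 and 12.3 CPM in YTHDF2-SMARCA4 and 11.04, 11.6 and 12.8 CPM in YTHDF2-NT. It had 7.66, 8.38 and 12.5 CPM in nuclease-SMARCA4, against 16.2, 21.6 and 20.8 CPM in nuclease-NT. All 3 nuclease-NT libraries were above the other 9, while nuclease-SMARCA4 replicate 3 lay among the YTHDF2 libraries. The mean of 9.51 ± 2.61 CPM in nuclease-SMARCA4 against 19.6 ± 2.89 CPM in nuclease-NT (SD, n = 3 each) gave a log2 fold change of -1.04 (SE 0.174).

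The models of POMZP3 did not differ alike. POMZP3-202 had 2.08, 1.85 and 0.775 TPM in nuclease-SMARCA4, against 6.12, 12.8 and 6.40 TPM in nuclease-NT, with no overlap. POMZP3-203, the nonsense-mediated decay model, had 3.08, 3.83 and 8.62 TPM in nuclease-SMARCA4, against 5.88, 2.37 and 7.31 TPM in nuclease-NT, and these overlapped. POMZP3-203 therefore held 54.7 to 92.3% of the gene's counts in nuclease-SMARCA4 libraries and 13.7 to 46.3% in nuclease-NT libraries. In YTHDF2-SMARCA4 the same share ran from 16.2 to 74.8%, and in YTHDF2-NT from 20.7 to 50.2%. These models share most of their bases with each other, and POMZP3-202 lies for 50.3% of its bases opposite exons of AC004980.1, so the division also depends on the strand setting of the counting, for which the sources used here give nothing.

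Both source genes of POMZP3 were expressed beside it. POM121 had 97.9, 73.1 and 85.3 CPM in nuclease-SMARCA4 against 93.8, 104.8 and 96.3 CPM in nuclease-NT, with overlap, and a difference of -0.20 on the log2 scale (SE 0.202, adjusted p = 0.750). ZP3 had 3.28, 5.07 and 6.57 CPM in nuclease-SMARCA4 against 6.68, 6.93 and 9.14 CPM in nuclease-NT, and the groups stood just apart, at -0.60 (SE 0.280, adjusted p = 0.457). AC004980.1 was at -0.54 (SE 0.214, adjusted p = 0.389). Summed over POM121, POM121C, ZP3 and AC004980.1, the level was 168 ± 17.9 CPM in nuclease-SMARCA4 and 194 ± 7.37 CPM in nuclease-NT (SD, n = 3 each), or 13.2% lower, while POMZP3 alone was 51.4% lower.

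HSD17B7P2, at chr10:38356380-38378505 on the plus strand, had 8.74, 12.9 and 14.0 CPM in YTHDF2-SMARCA4 and 12.4, 10.8 and 12.7 CPM in YTHDF2-NT. It had 5.91, 10.1 and 6.98 CPM in nuclease-SMARCA4, against 17.9, 16.4 and 16.3 CPM in nuclease-NT. The nuclease-NT libraries were close together and all above the rest. The mean was 7.65 ± 2.16 CPM in nuclease-SMARCA4 and 16.8 ± 0.892 CPM in nuclease-NT (SD, n = 3 each), a log2 fold change of -1.13 (SE 0.195).

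HSD17B7, the parent gene, lay in the same direction with a smaller difference. It had 33.3, 32.2 and 33.4 CPM in nuclease-SMARCA4, against 37.9, 42.6 and 42.7 CPM in nuclease-NT, with no overlap, and a log2 fold change of -0.32 (SE 0.079). Its adjusted p was 0.200 with edgeR and 0.0476 with DESeq2. Over 17 alternatives it ran from 0.0383, in the edgeR fit of the 6 libraries compared, to 0.699. Because HSD17B7 can share reads with HSD17B7P2, its values are not separate from the choice of HSD17B7P2. Set against the parent, HSD17B7P2 had the larger difference, 54.6% lower against 19.7% lower for HSD17B7, although 62.8% of the 31-mers of its main model occur in both genes.

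SMG1P3, at chr16:21446683-21520444 on the minus strand, was the one gene whose nuclease-NT libraries did not all stand above the rest. It had 13.2, 15.8 and 18.0 CPM in YTHDF2-SMARCA4 and 7.68, 12.5 and 11.8 CPM in YTHDF2-NT. It had 9.62, 8.17 and 13.1 CPM in nuclease-SMARCA4, against 15.4, 21.9 and 22.2 CPM in nuclease-NT. The lowest nuclease-NT library, at 15.4 CPM, was below 2 of the YTHDF2-SMARCA4 libraries. The means of 10.3 ± 2.51 CPM in nuclease-SMARCA4 and 19.8 ± 3.83 CPM in nuclease-NT (SD, n = 3 each) gave a log2 fold change of -0.95 (SE 0.215). Its main model SMG1P3-206 had 2.30, 1.91 and 3.44 TPM in nuclease-SMARCA4, against 4.98, 7.74 and 7.14 TPM in nuclease-NT. SMG1P3-205 was listed at 0 in 7 of the 12 libraries. It had 0, 0 and 0.689 TPM in YTHDF2-SMARCA4 and 0 in all 3 YTHDF2-NT libraries, and 0, 0.116 and 0.833 TPM in nuclease-SMARCA4 against 0.438, 0 and 1.06 TPM in nuclease-NT, so every group held a library at 0.

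SMG1 itself had 46.1, 43.4 and 46.6 CPM in nuclease-SMARCA4, against 60.1, 55.7 and 51.5 CPM in nuclease-NT, with no overlap, and a fitted value of -0.30 on the log2 scale (SE 0.162, adjusted p = 0.531). SMG1P1 had 0.219, 0.986 and 2.43 CPM in nuclease-SMARCA4, against 4.90, 5.84 and 5.15 CPM in nuclease-NT, a difference of -2.15 on the log2 scale (SE 0.630, adjusted p = 0.237). All 5 SMG1 pseudogenes besides SMG1P3 that passed the filter were lower in nuclease-SMARCA4, with a median of -0.58, 0 called by edgeR and 2 at an unadjusted p under 0.05. The summed level of SMG1 and its other pseudogenes was 54.0 CPM in YTHDF2-NT replicate 1 and 110.4 CPM in replicate 2, and the part of the spread of the YTHDF2-NT libraries in the values of this family was not tested.

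LRRC37A2, at chr17:46511511-46555650 on the plus strand, had the smallest log2 difference of the 6 genes and the smallest standard error. It had 38.9, 40.4 and 42.8 CPM in YTHDF2-SMARCA4 and 38.6, 39.3 and 41.2 CPM in YTHDF2-NT. It had 35.6, 33.4 and 37.0 CPM in nuclease-SMARCA4, against 44.8, 51.3 and 52.9 CPM in nuclease-NT. All nuclease-NT libraries were above the others and all nuclease-SMARCA4 libraries were below them. The means were 35.3 ± 1.82 CPM in nuclease-SMARCA4 and 49.7 ± 4.25 CPM in nuclease-NT (SD, n = 3 each), a log2 fold change of -0.49 (SE 0.084).

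The other LRRC37 genes were likewise lower in nuclease-SMARCA4 than in nuclease-NT. LRRC37A had 5.76, 5.14 and 11.4 CPM in nuclease-SMARCA4, against 12.5, 17.8 and 16.6 CPM in nuclease-NT, a log2 fold change of -1.08 (SE 0.263). Its adjusted p was 0.194 with edgeR and 0.0229 with DESeq2, and ran from 1.21e-07 to 0.686 over 17 alternatives. LRRC37B had 9.62, 6.41 and 9.57 CPM in nuclease-SMARCA4 against 11.2, 12.6 and 14.4 CPM in nuclease-NT, at -0.57 (SE 0.165, adjusted p = 0.227). All 4 LRRC37 relatives had non-overlapping groups in this direction, as had 12.2% of all genes tested, with a median of -0.63. EdgeR called 0 of them, and 4 had an unadjusted p under 0.05, against 10.9% of all genes tested. Their summed level with LRRC37A17P was 37.4% lower in nuclease-SMARCA4, a larger difference than the 28.9% of LRRC37A2.

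AC073869.1, at chr2:131492813-131521573 on the plus strand, had 19.2, 18.8 and 20.3 CPM in YTHDF2-SMARCA4 and 17.7, 15.4 and 19.6 CPM in YTHDF2-NT. It had 14.6, 16.8 and 14.6 CPM in nuclease-SMARCA4, against 21.1, 26.4 and 29.01 CPM in nuclease-NT. Nuclease-NT was again above all the others, by the narrowest gap, with 20.3 CPM in the highest YTHDF2-SMARCA4 library against 21.1 CPM in the lowest nuclease-NT library. The means were 15.3 ± 1.25 CPM in nuclease-SMARCA4 and 25.5 ± 4.05 CPM in nuclease-NT (SD, n = 3 each), a log2 fold change of -0.73 (SE 0.128). SMPD4 had 93.0, 102.2 and 103.6 CPM in nuclease-SMARCA4 against 100.3, 112.2 and 107.0 CPM in nuclease-NT, with overlap, and a difference of -0.10 on the log2 scale (SE 0.074, adjusted p = 0.665).

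**Figure D2:**
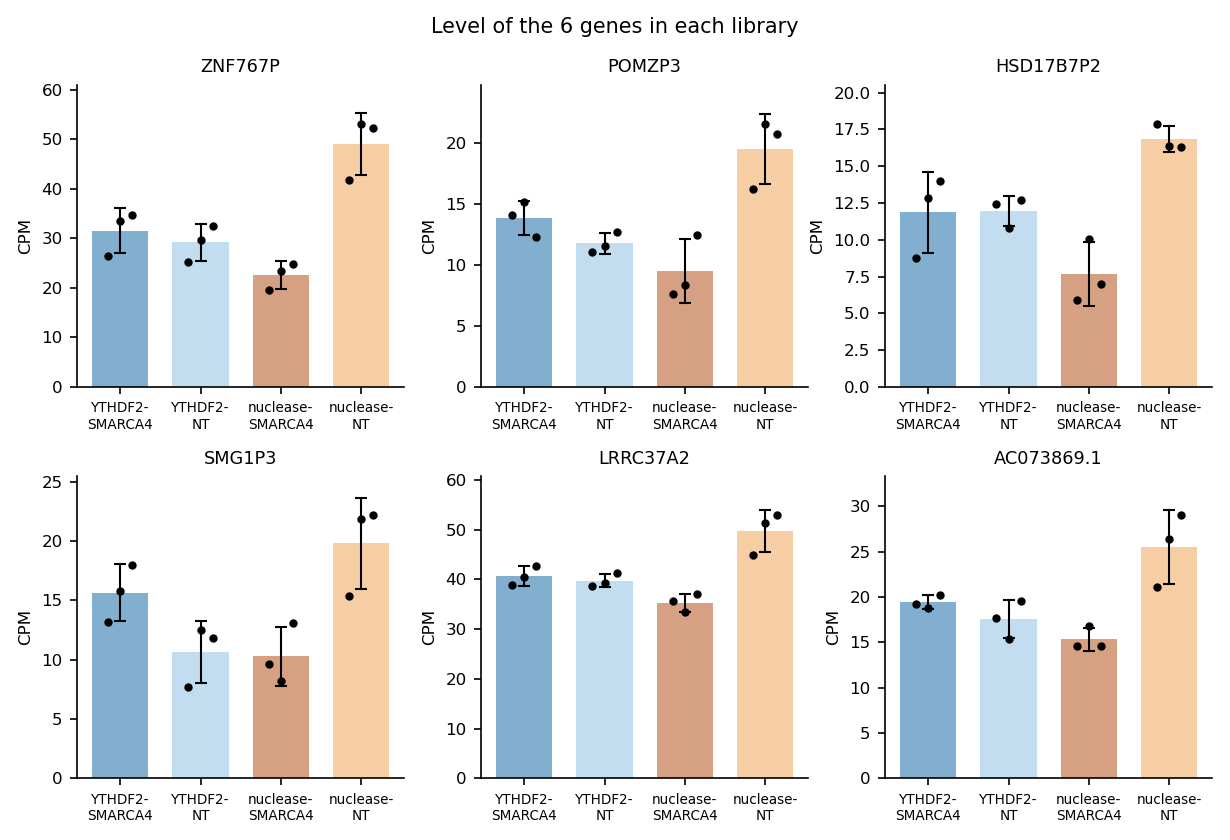
Level of each gene (CPM, TMM-scaled, axes starting at 0) in the 4 groups. Points are the 3 libraries, bars their mean and error bars the SD; nuclease-NT has the highest mean in all 6 panels, and nuclease-SMARCA4 the lowest.

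All 6 genes had non-overlapping groups between nuclease-SMARCA4 and nuclease-NT, which 12.2% of all genes tested showed in that direction, and nothing is read from this count because these libraries chose the genes. The nuclease-NT libraries lay above the 9 others for 5 of the 6, and for 212 of 16297 genes (1.3%), and this pattern too was part of their choice. In YTHDF2-NT over nuclease-NT, a comparison that shares the nuclease-NT libraries, the log2 fold changes were -0.75 for ZNF767P, -0.73 for POMZP3, -0.49 for HSD17B7P2, -0.89 for SMG1P3, -0.32 for LRRC37A2 and -0.53 for AC073869.1. With each YTHDF2-NT library left out in turn they ran from -0.83 to -0.65 for ZNF767P, -0.79 to -0.68 for POMZP3, -0.54 to -0.44 for HSD17B7P2, -1.02 to -0.70 for SMG1P3, -0.35 to -0.30 for LRRC37A2 and -0.62 to -0.46 for AC073869.1. All 6 were lower without overlap, as were 5.96% of all genes tested, while 6.86% were higher without overlap and 5 genes (0.0307%) were called lower, and nothing is read from these counts for the 6 genes. Between the groups that carry the SMARCA4 guide, the order was the reverse of that between the groups with the NT guide, with means in YTHDF2-SMARCA4 above those in nuclease-SMARCA4 for all 6 genes, for example 31.6 ± 4.50 CPM against 22.6 ± 2.78 CPM for ZNF767P (SD, n = 3 each). The libraries overlapped for HSD17B7P2 and POMZP3. Nothing is read from this order, because the nuclease libraries entered the choice of the genes, and its share over all genes was not computed.

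By mean TPM, a level per length, the 6 genes had the same order in nuclease-NT, nuclease-SMARCA4 and YTHDF2-NT. Only in YTHDF2-SMARCA4 was the mean of POMZP3 above that of ZNF767P, and the libraries of both genes overlapped there. In YTHDF2-SMARCA4 LRRC37A2 was highest, with 14.7 ± 0.363 TPM, followed by POMZP3 with 12.8 ± 1.76 TPM and ZNF767P with 11.6 ± 1.11 TPM (SD, n = 3 each). In nuclease-NT LRRC37A2, ZNF767P and POMZP3 could not be ranked, with 18.8 ± 1.84, 18.8 ± 2.59 and 18.8 ± 4.07 TPM (SD, n = 3 each). HSD17B7P2 came next in nuclease-NT with 15.3 ± 0.634 TPM, and SMG1P3 and AC073869.1, at 8.39 ± 1.70 and 7.89 ± 1.31 TPM (SD, n = 3 each), were closer to each other than their spread.

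The test available for the 6 genes asks whether the SMARCA4 guide changed them with the YTHDF2 effector. It is not free of their choice, which required levels in both YTHDF2 groups below those in nuclease-NT. With edgeR's quasi-likelihood test and Benjamini-Hochberg adjustment over 16297 genes, 0 genes (0%) passed an adjusted p of 0.05 in YTHDF2-SMARCA4 over YTHDF2-NT, 1112 (6.82%) had an unadjusted p under 0.05, and DESeq2 called 1. None of the 6 genes was called. SMG1P3 had the largest difference, with 15.7 ± 2.40 CPM in YTHDF2-SMARCA4 and 10.7 ± 2.63 CPM in YTHDF2-NT (SD, n = 3 each), or 0.56 on the log2 scale (SE 0.214, adjusted p = 0.703, unadjusted p = 0.0219). It was higher in 3 of 3 libraries, without overlap, and 4.29% of all genes tested had non-overlapping groups in that direction. Without YTHDF2-NT replicate 1 its log2 fold change was 0.37, without replicate 3 it was 0.64, and without replicate 2 it was 0.69 (adjusted p = 0.0665, range 0.0322 to 1.0 over 17 alternatives). Without YTHDF2-NT replicate 2, the lowest library on the first component, 1585 of all genes were called, and still none of the 6.

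For the other 5 genes the libraries overlapped, and the 95% interval of the percent difference (YTHDF2-SMARCA4 relative to YTHDF2-NT) shows what sizes remain possible. For ZNF767P it ran from -12.1% to 33.3% (log2 fold change 0.11, SE 0.139, adjusted p = 0.841). For POMZP3 it ran from -9.20% to 51.8% (0.23, SE 0.172, adjusted p = 0.753). For HSD17B7P2 it ran from -24.9% to 32.7%, around a log2 difference of -0.0023 (SE 0.190, adjusted p = 0.997). These intervals are wide, and that of HSD17B7P2 is centred near 0. For LRRC37A2 the interval was the narrowest, from -9.49% to 16.2% (0.04, SE 0.084, adjusted p = 0.921), and for AC073869.1 it ran from -8.55% to 33.9% (0.15, SE 0.128, adjusted p = 0.781). With each YTHDF2-NT library left out in turn, the log2 fold change ran from 0.02 to 0.20 for ZNF767P, 0.18 to 0.29 for POMZP3, -0.06 to 0.04 for HSD17B7P2, 0.02 to 0.06 for LRRC37A2 and 0.07 to 0.23 for AC073869.1. The difference between the effectors was not tested, since the nuclease values chose the genes. Across 102 fits of the 6 genes under alternatives, only SMG1P3 was called, in 1 fit with no filter on low counts (adjusted p = 0.0322).

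The related genes comprise 36 parents, paralogs, neighbours and genes with shared 31-mers, of which 32 passed the count filter. The last kind were among the genes that share most with a model and held at least 10% of its 31-mers. Genes further down that order were not added, even above 10%, so the set is not complete. In nuclease-SMARCA4 over nuclease-NT all 32 had a log2 fold change below 0, with a median of -0.31 and a range from -2.15 to -0.01, beside 50.1% of all genes tested and a median of -0.0002. Of the 32, 0 were called by edgeR (smallest adjusted p = 0.194), 12 had an unadjusted p under 0.05 against 10.9% of all genes, DESeq2 called 2 against 0.859% of all genes, and 15 had non-overlapping groups in this direction against 12.2% of all genes. All 32 were below 0 also with other size factors and with DESeq2, whereas leaving out 1 nuclease library left 27 to 32 below 0. Many of these genes share reads with the 6 described here or with each other, so they do not count as separate observations. In YTHDF2-SMARCA4 over YTHDF2-NT 20 of the 32 were higher and 12 lower, with a median of 0.09 beside -0.0085 for all genes, and 0 were called by either tool, with 2 at an unadjusted p under 0.05 and 5 called without YTHDF2-NT replicate 2, where 1585 of all genes were called. With all libraries, 51.8% of all genes were lower and 6.82% had an unadjusted p under 0.05. In YTHDF2-NT over nuclease-NT 25 of the 32 were lower and 7 higher, with a median of -0.21, 0 called by either tool and 7 at an unadjusted p under 0.05. Beside them, 48.7% of all genes were lower, with a median of 0.0058, and 10.9% had an unadjusted p under 0.05. Of all genes, DESeq2 called 0.663% there, and edgeR called 8 (0.0491%), or 1610 without YTHDF2-NT replicate 2, 5 of the 32 among them.

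**Figure D3:**
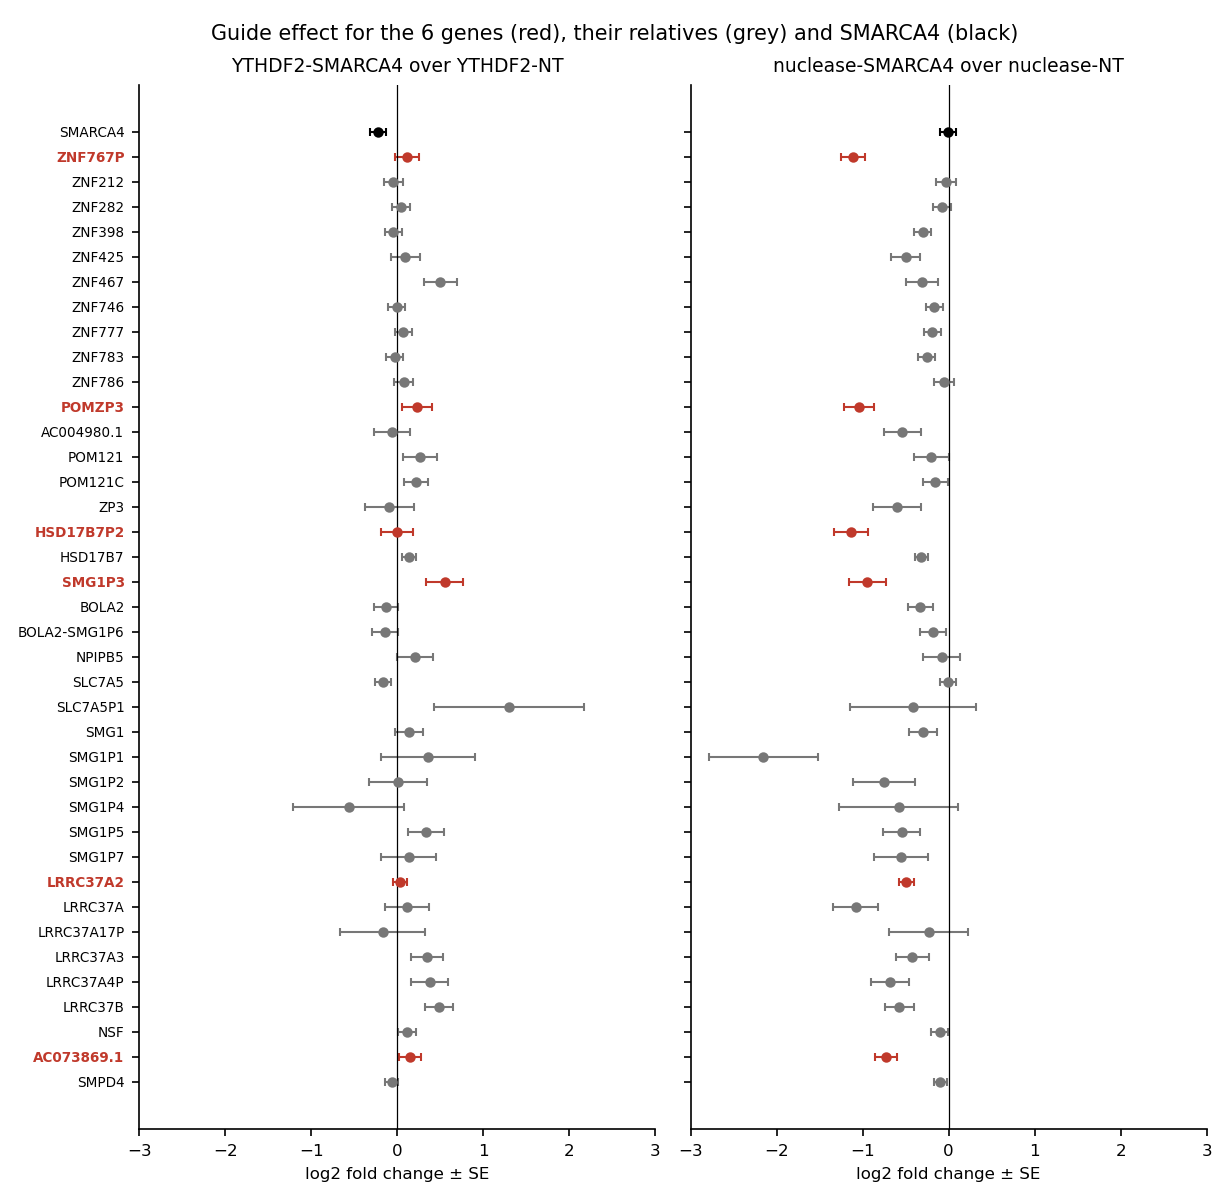
Log2 fold change ± SE (edgeR) of the 6 genes (red, bold), their relatives (grey, grouped under each gene) and SMARCA4 (black), for YTHDF2-SMARCA4 over YTHDF2-NT (left) and nuclease-SMARCA4 over nuclease-NT (right). On the right the red points lie between -1.13 and -0.49 and every grey point lies below 0; on the left the red points lie between -0.0023 and 0.56 and the grey points fall on both sides of 0.

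Other pseudogenes lay on both sides of 0. Leaving out the genes described here, of which ZNF767P, HSD17B7P2, SMG1P3 and AC073869.1 have such a type, 850 tested genes are of a pseudogene type in GENCODE 29. Of these, 429 were lower in nuclease-SMARCA4 than in nuclease-NT, with a median log2 fold change of -0.0075 and 0 called by edgeR, with 103 at an unadjusted p under 0.05, which 10.9% of all genes tested had. Of 502 genes, again without those described here, whose models are all of a pseudogene class, 213 were lower, with a median of 0.11.

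The summed level of the relatives was set beside each gene, and the part of the division of reads between copies in these values was not tested. The relatives of SMG1P3 summed to 68.5 ± 3.85 CPM in nuclease-SMARCA4 and 94.3 ± 2.36 CPM in nuclease-NT (SD, n = 3 each), 27.4% lower. The relatives of LRRC37A2 summed to 29.3, 28.1 and 36.4 CPM in nuclease-SMARCA4 and 45.8, 53.3 and 50.97 CPM in nuclease-NT, 37.4% lower and without overlap. SMPD4 was 6.49% lower and ZNF746 11.1% lower. In none of the 6 families was the mean summed level of the relatives higher in nuclease-SMARCA4.

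**Figure D4:**
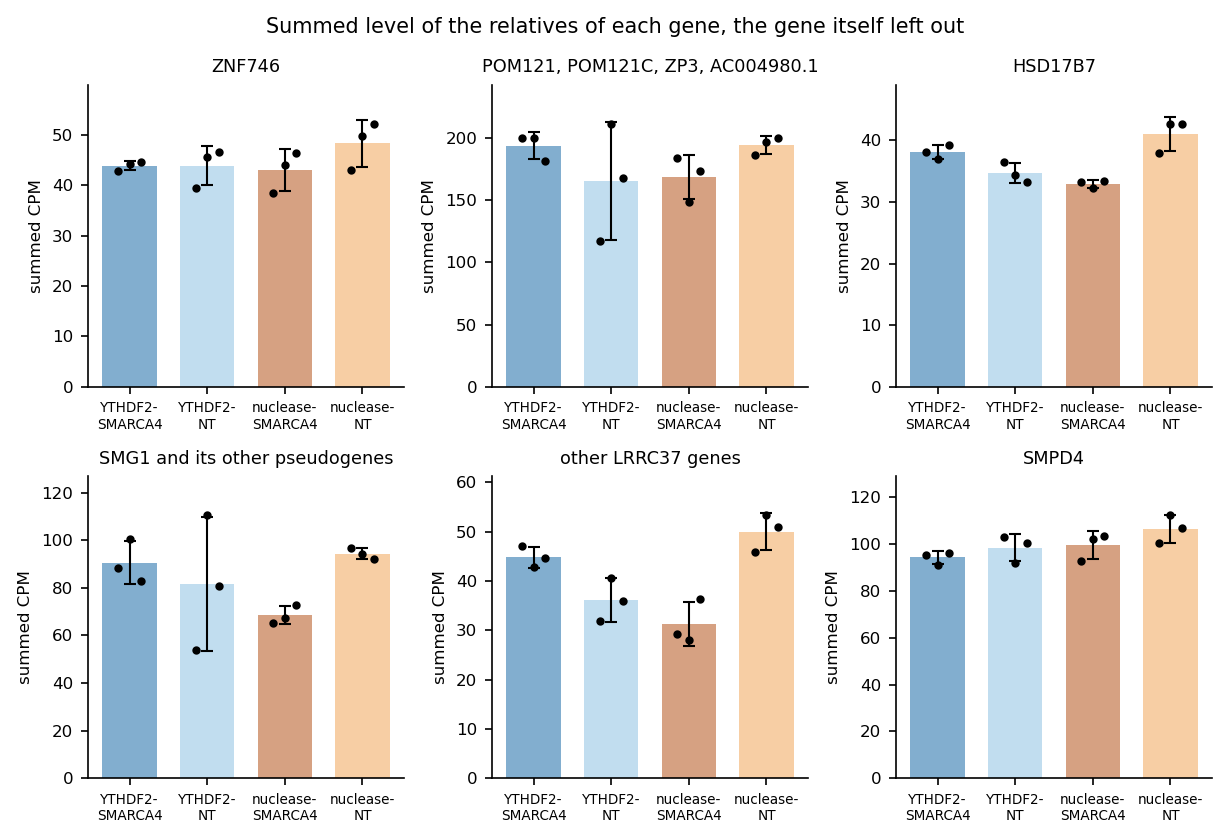
Summed level (CPM, axes starting at 0) of the relatives of ZNF767P, POMZP3 and HSD17B7P2 (top row) and of SMG1P3, LRRC37A2 and AC073869.1 (bottom row), without the gene itself. Points are libraries, bars means and error bars SDs of 3 libraries; the means are lower in nuclease-SMARCA4 than in nuclease-NT in all 6 panels, and 2 panels show YTHDF2-NT libraries far apart.

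The genes whose log2 CPM over the 12 libraries most resembled the mean standardised pattern of the 6 had Pearson correlations between 0.927 and 0.951, given as a description, since all 12 libraries share their depth and groups with the pattern itself. They were PVT1, a long noncoding RNA gene, CNOT10, which encodes a subunit of the CCR4-NOT deadenylase complex, and PPM1D, which encodes a phosphatase of the p53 response. Next came PRKAB1, which encodes a regulatory subunit of AMP-activated kinase, OVGP1, the zinc finger gene ZNF473, TOE1, which encodes a deadenylase, and SLC35B3, which encodes a transporter. The list also holds CROCCP2 and AC116050.1, both transcribed unprocessed pseudogenes. PPM1D, for example, averaged 78.4 ± 1.72 CPM in YTHDF2-SMARCA4, 72.7 ± 6.96 CPM in YTHDF2-NT, 63.4 ± 7.48 CPM in nuclease-SMARCA4 and 93.7 ± 10.3 CPM in nuclease-NT (SD, n = 3 each). CROCCP2 averaged 22.4 ± 2.56 CPM in YTHDF2-SMARCA4, 19.9 ± 0.901 CPM in YTHDF2-NT, 18.3 ± 3.94 CPM in nuclease-SMARCA4 and 27.6 ± 2.47 CPM in nuclease-NT.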

How the data were processed

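The members and gene lists were chosen with earlier results of these data known. Per the labels' protocols, an RNeasy Mini kit and a KAPA mRNA HyperPrep kit were used. The authors deposited estimated counts and TPM per transcript, and the submitters' processing notes name kallisto, sleuth and hg38. Versions, the transcriptome release and the strand setting are not given in the sources used here. Kallisto divides reads among transcripts that share their sequence. The deposited TPM values are scaled by effective length and then to the same total in every library, so they hold no depth. Of 200401 transcript IDs, 197690 matched GENCODE 29 with the same length, and its models and sequences were used. The other 2 of 200403 targets, luciferase reporters, were left out.

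Counts were added up per gene ID and rounded. Genes were tested with edgeR 4.0.16 (quasi-likelihood, two-sided, TMM, filterByExpr, 1 mean per group over 12 libraries) in R 4.3.3, with a threshold of 0.05 on p adjusted by Benjamini-Hochberg. The fit kept 16297 genes with at least 99.8% of each library's counts, a biological coefficient of variation of 11.4% and 8 residual degrees of freedom, and was checked on simulated counts. Alternatives were other size factors (RLE), DESeq2 1.42.0, no count filter, a replicate block, a fit of the 6 libraries compared, and each library left out. Named genes were SMARCA4, the 6 genes with models of at least 1 TPM, related genes past the filter, and the 10 genes with the most similar pattern on log2 CPM after adding 0.5. Of 27 related genes listed from general knowledge 26 were found, and 10 that share at least 10% of a model's 31-mers were added after the files were seen, by sequence. Only the genes that share most with each model were considered for this, so others above 10% can be missing. Some related genes are not reported here and enter no count of them. The 4 that did not pass the filter were HSD17B7P1, SMG1P6, AL117339.5 and SLC7A5P2.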

Additional observations from a re-analysis of the deposited data

Results flagged for a closer look

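In 3 of the 6 genes and their 32 relatives, every nuclease-SMARCA4 library was below every nuclease-NT library while every YTHDF2-SMARCA4 library was above every YTHDF2-NT library. The same pattern was found in 104 of 16297 genes (0.638%), and the difference between the effectors was not tested. SMG1P3 is one of the 6 genes whose choice used the nuclease values. SMG1P3 had a log2 fold change of 0.56 in YTHDF2-SMARCA4 over YTHDF2-NT and -0.95 in nuclease-SMARCA4 over nuclease-NT. LRRC37B had 0.49 with YTHDF2 and -0.57 with the nuclease, and HSD17B7 had 0.14 with YTHDF2 and -0.32 with the nuclease. None of the 3 was called by edgeR with YTHDF2.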

How the results depend on the processing

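Numbers of genes called depended strongly on the fit. In nuclease-SMARCA4 over nuclease-NT, edgeR called 1 gene, DESeq2 140, the fit with no count filter 333, the fit of 6 libraries 550, and fits with 1 library left out 0 to 44. In YTHDF2-SMARCA4 over YTHDF2-NT it was 0, with DESeq2 1, with no filter 214 and with 1 library left out 0 to 1585. In YTHDF2-NT over nuclease-NT it was 8, with DESeq2 108, with no filter 360 and with 1 library left out 1 to 1610. The cause was not tested. The log2 fold changes of the 6 genes kept their direction in all alternatives, except HSD17B7P2 in the YTHDF2 comparison, which was 0.003 with RLE factors, 0.0 with DESeq2, 0.016 with no filter and -0.133 to 0.176 with 1 library left out. Directions also turned with 1 library left out for SLC7A5 (-0.076 to 0.087), SMARCA4 (-0.051 to 0.042, and 0.003 with no filter), ZNF212 (-0.15 to 0.054), SMG1P4 (-1.077 to 0.006), ZNF786 (-0.117 to 0.028), NPIPB5 (-0.379 to 0.086), SLC7A5P1 (-0.721 to 0.022) and LRRC37A17P (-0.43 to 0.05) with the nuclease, and for SMG1 (-0.046 to 0.396) and LRRC37A (-0.103 to 0.239) with YTHDF2. Related genes called under an alternative included LRRC37A and SMG1P1 in nuclease-SMARCA4 over nuclease-NT, and, with SMARCA4, POM121, SMG1, ZNF467 and LRRC37A4P in YTHDF2-SMARCA4 over YTHDF2-NT without YTHDF2-NT replicate 2.

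The labels number the replicates alike in each group, but libraries of the same number did not deviate together, with correlations of -0.047 to 0.055. With the replicate block, 2 genes were called in nuclease-SMARCA4 over nuclease-NT, 0 in YTHDF2-SMARCA4 over YTHDF2-NT and 4 in YTHDF2-NT over nuclease-NT. Depth limits the 6 genes, which had as few as 81 counts in a library.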
